A study of Drosophila melanogaster
Schmidtea mediterranea with 2 samples.

Results

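Chains of close H3K4me3 peaks are stretches of planarian stem cell chromatin in which at least 3 marked intervals follow each other across short gaps. They were chosen by the positions in the deposited Mnase-ChIP peak list: peaks were sorted along each scaffold, neighbours were joined wherever the gap from one end to the next start was at most 500 bp, and runs of 3 or more peaks were kept. This gave 325 peaks in 100 chains, out of 14553 listed peaks on 449 scaffolds. Positions are given by scaffold of the Rink lab v4 genome (dd_Smes_g4), with the first base as 1. A single H3K4me3 ChIP library was made, with 1 input library, and the list gives the scaffold, the start and the end of each peak. The chromatin came from 800 K cells of the X1 gate, sorted by FACS from untreated adult Schmidtea mediterranea of the asexual CIW4 strain and pooled with an excess of S2 cells, a cultured Drosophila line. The methods and the series' design text differ in the number of S2 cells. The X1 gate is set on DNA content stained with Hoechst and holds the dividing cells of the animal, and the planarian cells were a minority of the pool. With a single ChIP library there is no replicate error and no test between groups. All values are therefore a description of this list, the 95% intervals given with medians and shares cover counting error only, and the read depth behind each peak is unknown. Intervals over chain peaks or their gaps count each as independent, although those of a chain share their locus, so they are too narrow.

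Trimethylation of lysine 4 on histone H3 is laid down by Set1 and MLL enzymes and marks the nucleosomes at the start of active genes. In mammals, unusually broad domains of the mark lie over genes of cell identity. In Mnase-ChIP the chromatin is digested by micrococcal nuclease, which spares the DNA wrapped around histones, so that the antibody to H3K4me3 pulls down mostly single nucleosomes. A peak caller then reports a stretch of enriched fragments as 1 interval, or as several where the signal falls below its limit in between. Whether a chain is 1 marked domain listed in pieces or the marks of several genes was not tested. The sequences of the chains are not shown, since no planarian genome sequence was used here.

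Most of the listed peaks stood alone. With no neighbour within 500 bp there were 12008 peaks, or 82.5% (95% Wilson interval 81.9% to 83.1%). Another 2220 peaks, or 15.3% (14.7% to 15.8%), formed 1110 pairs, and the 325 chain peaks made up 2.23% (2.01% to 2.49%). The chains were short in number of peaks. Of the 100 chains, 80 had 3 peaks, 16 had 4 peaks, 3 had 5 peaks and 1 had 6 peaks.

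The share of runs that went on to a further peak was taken at each step. Among all 13218 runs, counting a lone peak as a run of 1, 9.15% (8.67% to 9.66%) went on to 2 peaks. Of the 1210 runs with at least 2 peaks, 8.26% (6.84% to 9.95%) went on to 3. Of the 100 chains, 20 went on to 4 peaks, a share with an interval of 13.3% to 28.9%, and 4 of those 20 went on to 5. The interval for the step from 3 to 4 peaks lies above both earlier ones in this list, and the step after it rests on 20 runs. The steps are nested and set by the 500 bp rule, and no test between them was made.

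The chains spanned between 1408 and 7567 bp from the first start to the last end, with a median of 2630.5 bp (95% interval 2387 to 2940 bp, by binomial order statistics). Of the spans, the middle 50% lay between 1995 and 3543 bp. Chains of 3 peaks had a median span of 2416.5 bp (2211 to 2701 bp) and chains of 4 peaks one of 3550 bp (2707 to 4128 bp). The 3 chains of 5 peaks spanned 3411, 4443 and 7061 bp, and the chain of 6 peaks spanned 7435 bp. Spans rose with the number of peaks, as the rule builds in, but the ranges overlapped, and the longest chain of all had only 3 peaks.

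The median chain span exceeded the width of nearly every single peak in the list. Of the 12008 single peaks, 132 were wider than the median chain span. Spans over 4 kb were found in 16 of the 100 chains, or 16.0% (10.1% to 24.4%), in 25 of the 1110 pairs, or 2.25% (1.53% to 3.30%), and in 11 of the single peaks, or 0.0916% (0.0512% to 0.164%). The pairs had a median span of 1673.5 bp (1612 to 1724 bp). A span includes the gaps, so the length under the peaks is the stricter measure. It still adds up several peaks per chain, so it is larger in part by construction. That covered length had a median of 1989.5 bp (1808 to 2281 bp) per chain against 1400.5 bp (1328 to 1450 bp) per pair and 989.5 bp (978 to 1000 bp) per single peak. Together the chains spanned 293 kb, of which the peaks covered 229 kb and the gaps 63.6 kb. The covered part was 1.64% of the length under all listed peaks, less than the 2.23% that chain peaks took of the number of peaks.

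**Figure D1:**
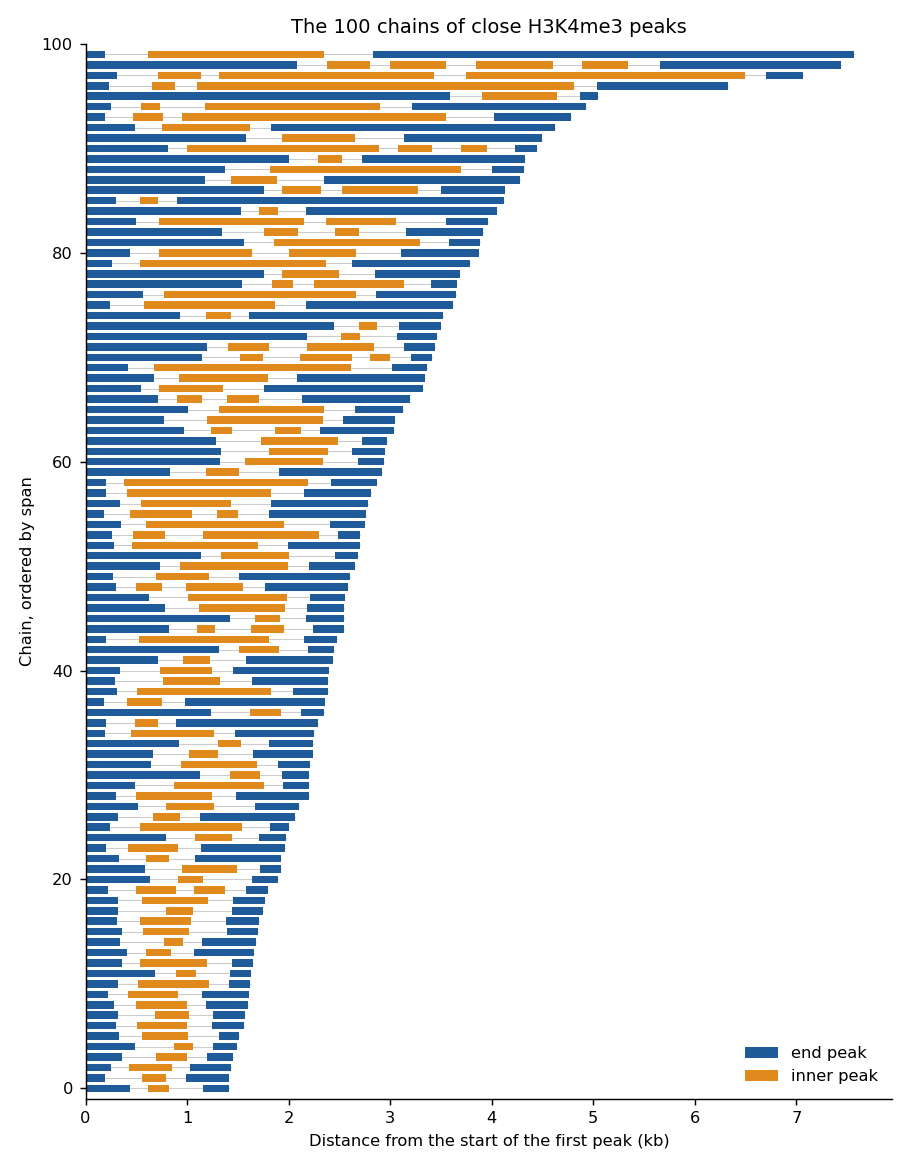
Each row is 1 of the 100 chains, ordered by span from 1408 bp at the bottom to 7567 bp at the top. The horizontal axis is the distance in kb from the start of the first peak, blue bars are end peaks, orange bars are inner peaks and thin grey lines are gaps. Wide and narrow peaks occur at both kinds of place, and the gaps are of similar length in short and long chains.

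The peaks covered a median of 76.2% of the span (74.5% to 79.1%), with a range from 51.2% to 89.7%. A cover of at least 70% was reached by 80 chains and one of at least 85% by 15 chains. In pairs the median was 83.5% (82.9% to 84.1%), where 1 gap instead of several separates the peaks. Longer chains were covered more densely (Spearman's rho = 0.71 across 100 chains, a description in which both measures share the peak widths). This went with the widths of the peaks and less with the gaps. The summed gaps of a chain had a median of 583.5 bp (549 to 629 bp) and the middle 50% of chains had between 497.5 and 714.5 bp, while the covered length of the middle 50% ran from 1433 to 2832 bp. The width of the widest peak followed the span closely across the chains (rho = 0.90), and the summed gaps did so less (rho = 0.43). Both are parts of the span.

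**Figure D2:**
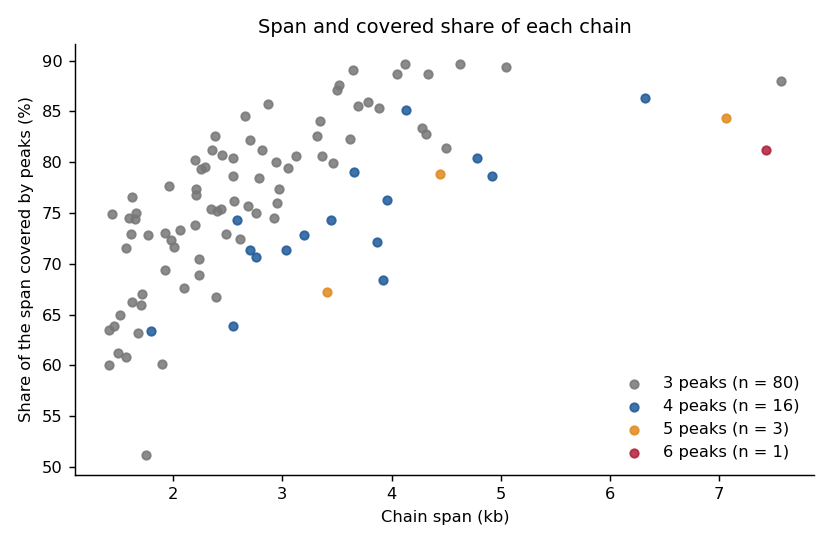
Each point is 1 chain, with its span in kb on the horizontal axis and the share of that span covered by peaks, in percent, on the vertical axis, coloured by the number of peaks. Short chains range from 51.2% upwards, the 5 chains of over 5 kb all lie above 80%, and the medians are 76.7% for chains of 3 peaks and 73.6% for chains of 4.

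The gaps inside chains were much like those inside pairs. The 225 chain gaps had a median of 261 bp (245 to 280 bp) and the 1110 pair gaps one of 267 bp (261 to 276 bp). Gaps of at most 300 bp made up 64.9% (58.4% to 70.8%) in chains and 62.3% (59.4% to 65.1%) in pairs. The shortest gap was 176 bp in both, and also in the whole list, and the narrowest of all listed peaks was 175 bp wide. Gaps and peaks thus start at nearly the same length, and whether the peak caller set this limit was not tested. Within the 80 chains of 3 peaks, both gaps were of unlike length by a median factor of 1.41 (1.26 to 1.52), and the first and the second gap showed almost no relation (rho = -0.09 across 80 chains). The rule caps the gaps at 500 bp, so their upper end is not a finding.

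**Figure D3:**
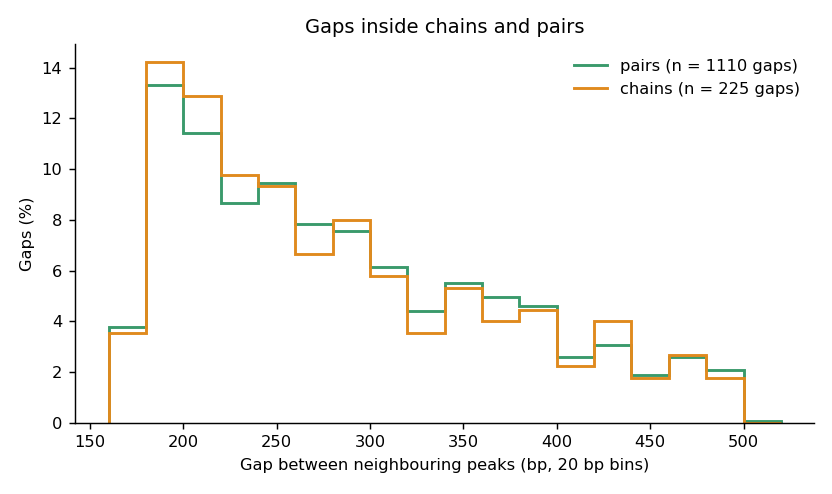
Gaps between neighbouring peaks in 20 bp bins, as a percentage of the 225 gaps inside chains (orange) and of the 1110 gaps inside pairs (green). Both outlines start at 176 bp, are highest between 180 and 220 bp and fall towards the limit of 500 bp.

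At the limit itself, the chain with the largest gap lies on scaffold 60 from position 2218259 to 2222217. Its 4 peaks are 495, 1425, 689 and 411 bp wide, and its last gap is 495 bp. The next ones inside the limit have a largest gap of 485 bp, on scaffold 228, and of 482 bp, on scaffold 4 from position 1316061 to 1317954. Just outside it, runs on scaffolds 57, 54 and 11 would have become chains of 3 peaks with gaps of 504, 514 and 533 bp. Their joined spans would be 2134, 2421 and 2930 bp, within the range of the chains that were kept. Gaps in the list thinned out without a break at the limit, with 165 gaps over 400 and up to 500 bp and 103 over 500 and up to 600 bp.

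Chain peaks were narrow compared with the rest of the list. Their median width was 462 bp (409 to 545 bp), against 600.5 bp (560 to 634 bp) for paired peaks and 989.5 bp for single peaks. Over the list as a whole, the median was 940 bp and the lower quartile 511 bp. Of the 325 chain peaks, 175 lay under that quartile, or 53.8% (48.4% to 59.2%), compared with 44.3% (42.2% to 46.4%) of the paired peaks and 20.6% (19.9% to 21.3%) of the single peaks. At the upper end of the distribution the classes were closer. Widths over 1602 bp, the limit of the widest 10% of the list, were found in 8.62% (6.03% to 12.2%) of the chain peaks, 8.74% (7.63% to 9.99%) of the paired peaks and 10.3% (9.74% to 10.8%) of the single peaks. A gap can be listed only where signal falls away between peaks, so width and neighbourhood come from the same positions and no test between the 3 classes was made.

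**Figure D4:**
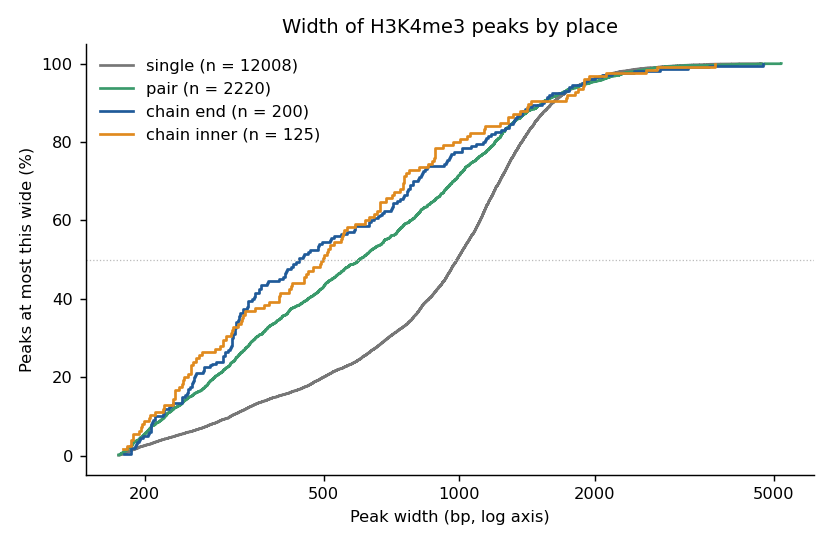
Share of peaks, in percent, that are at most as wide as the value on the horizontal axis (bp, log axis), for single peaks (grey), paired peaks (green), end peaks of chains (blue) and inner peaks of chains (orange). The curves for end and inner peaks run together around medians of 441 and 497 bp, well to the left of the single peaks at 989.5 bp, and all 4 curves meet at widths near 2000 bp.

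Place in the chain made little difference to the width. The 200 end peaks had a median of 441 bp (362 to 584 bp) and a range from 180 to 4732 bp. The 125 inner peaks had a median of 497 bp (400 to 587 bp) and a range from 179 to 3709 bp. Because peaks of 1 chain share their locus, the mean width of the inner peaks minus that of both ends was also taken within each chain. This difference had a median of -25.5 bp (-176 to 129 bp), an interval that includes 0, and the middle 50% of chains lay between -410.5 and 327 bp. Inner peaks were the wider ones on average in 46 of the 100 chains. The interval still allows a median shift of up to 176 bp in favour of the ends, so equal widths were not shown.

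First and last peaks were also close, with medians of 485.5 bp (340 to 666 bp) and 426.5 bp (349 to 631 bp). First and last follow the numbering of the scaffold and not the direction of a gene, so a difference along genes would be averaged out here. In the 80 chains of 3 peaks, the median widths by place were 463, 521 and 420.5 bp. The widest peak was the first one in 26 of these chains, the middle one in 31 and the last one in 23. In the 20 chains of 4 to 6 peaks, the ends had a median of 670 bp (306 to 813 bp) and the inner peaks one of 400 bp (311 to 616 bp), with intervals that overlap. Over all chains the widest peak was at an end in 60, or 60.0% (50.2% to 69.1%), and ends are 61.5% of all places.

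The peaks of a chain were also taken by rank in width. Rank sorts the widths by construction, so this contrast cannot be set against the one by place. The widest peak of a chain had a median width of 1109.5 bp (950 to 1289 bp), an interval that includes the median of single peaks, while the other 225 peaks had a median of 326 bp (312 to 352 bp). Picking the widest of several peaks favours it, and the same choice within pairs gave a median of 998 bp (959 to 1029 bp). Within a chain the widest peak was a median of 3.97 times (3.18 to 4.60) as wide as the narrowest, with a range from 1.06 to 24.6 times. In pairs the same ratio had a median of 2.29 (2.13 to 2.43), and a chain has more peaks to choose both extremes from. The widest peak held a median of 52.2% of the covered length, and over 50% of it in 55 chains. A peak of at most 280 bp, the limit of the narrowest 10% of the list, was present in 62 of the 100 chains. Neighbouring widths showed almost no relation in chains (rho = -0.07 across 225 neighbours that share peaks) and a weak negative one in pairs (rho = -0.17 across 1110).

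By the number of peaks over the list's median of 940 bp, the chains fell into 3 kinds of arrangement. In 39 chains no peak exceeded the median, and 14 of these held only peaks under the lower quartile. Such chains of small marks had a median span of 1797 bp (1652 to 2098 bp) and a median cover of 71.6% (66.2% to 73.8%). In 47 chains exactly 1 peak exceeded the median, with a median span of 2953 bp (2755 to 3365 bp). That peak was at an end in 31 of the 47. Ends are also most of the places in chains, so no preference for ends was read from this count. In 14 chains 2 peaks exceeded the median, and the median span was 4323 bp (3785 to 7061 bp). The wide peaks were direct neighbours in 9 of those 14 and had narrower peaks between them in the other 5. Most of the 14 chains have 3 peaks, where most pairs of places are neighbours. No preference for neighbouring places was therefore read from this count. The spans of the 3 kinds differ by construction, since the widths are part of the span. Summed gaps differed much less, with medians of 550 bp (514 to 600 bp) in the chains without a wide peak and 614 bp (569 to 695 bp) in the others.

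Peaks wider than 2 kb were found in 10 chains, which held 11 of the 574 such peaks in the list. By percent this is 3.38% (1.90% to 5.96%) of the chain peaks and 3.94% (3.64% to 4.27%) of all peaks. These 10 chains spanned from 3462 to 7567 bp. Their wide peak was an end peak in 7 of the 11 cases and an inner peak in 4, and most places in chains are ends.

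The longest chain lies on scaffold 228 from position 385151 to 392717, in the stretch in which the study appears to draw cbp-3, a planarian homolog of the acetyltransferases CBP and p300. This placement rests only on the scaffold name and position mark in that drawing, and the drawing spells the scaffold prefix dd_Smed where the list has dd_Smes. No gene model was used to check it. Its 3 peaks are 192, 1731 and 4732 bp wide, with gaps of 427 and 485 bp, and they cover 87.9% of the 7567 bp. The widest peak, from position 387986 to 392717, ranks 3 of 14553 from the widest and is the widest of all chain peaks. It is 24.6 times as wide as the narrowest peak of this chain, the largest such ratio among the 100 chains. The study's drawing shows a second, unnamed gene model beside cbp-3, and which peak belongs to which gene was not tested. With a largest gap of 485 bp, this chain also lies close to the limit of the rule. With a limit of 400 bp its peaks would all have been single peaks.

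Next in span is the only chain with 6 peaks, on scaffold 1 from position 10310638 to 10318072. Its peaks are 2079, 425, 550, 755, 452 and 1778 bp wide, so that both ends are wide and the 4 inner peaks are narrower than the list's median. The gaps of 294, 205, 292, 287 and 318 bp are all far from the limit. Peaks cover 81.2% of the 7435 bp. This chain ranks high in both span and number of peaks and stays whole with any gap limit from 318 bp up to the 500 bp used.

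The opposite arrangement occurs on scaffold 56 from position 368546 to 375606. Of its 5 peaks, of 314, 419, 2114, 2745 and 363 bp, the wide ones lie inside and the narrow ones at the ends. The gaps are 404, 179, 314 and 209 bp, and the cover is 84.3% of 7061 bp. In the chain on scaffold 133 from position 1563525 to 1569848, peaks of 229 and 234 bp lead to one of 3709 bp, the widest inner peak of all chains, and a last one of 1287 bp. It spans 6324 bp with a cover of 86.3%. The other chains of 5 peaks begin with wider marks and end in a row of small ones. On scaffold 10 from position 3213981 to 3218423 the widths are 813, 1891, 334, 253 and 211 bp. On scaffold 1 from position 3173295 to 3176705 they are 1147, 233, 510, 196 and 208 bp, with a cover of 67.3%.

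At the upper end of cover, the 3 highest chains all had 3 peaks, with the widest one at an end. Most of all chains had 3 peaks, and in most the widest peak was at an end. On scaffold 94, from position 514268 to 518891, peaks of 485, 869 and 2794 bp cover 89.7% of the span. On scaffold 231, from position 408273 to 412393, peaks of 299, 179 and 3218 bp also cover 89.7%. The third one, on scaffold 24 from position 5775493 to 5780542, has peaks of 3588, 740 and 186 bp and a cover of 89.4%.

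The lowest cover belonged to chains of small peaks. On scaffold 456, from position 42095 to 43845, peaks of 319, 264 and 313 bp with gaps of 477 and 378 bp cover 51.2% of 1751 bp. On scaffold 66, from position 1693062 to 1694473, peaks of 190, 231 and 427 bp cover 60.1%, and on scaffold 4, from position 1316061 to 1317954, peaks of 635, 253 and 252 bp cover 60.2%. The median span fell midway between those of a pair of chains, which differed in cover. The one on scaffold 9, from position 335460 to 338113, has peaks of 738, 1056 and 449 bp, gaps of 196 and 215 bp, and a cover of 84.5% of 2654 bp. The one on scaffold 51, from position 1615968 to 1618574, has peaks of 269, 527 and 1092 bp, gaps of 421 and 298 bp, and a cover of 72.4% of 2607 bp.

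Outside their ends, chains were mostly as far from other marks as single peaks were. The nearest outside peak lay at a median of 20282 bp (16075 to 27045 bp) for 99 chains, 26098 bp (24303 to 28160 bp) for 1103 pairs and 22991 bp (22389 to 23565 bp) for 11964 single peaks that shared their scaffold with another run. Close by, the order was different. An outside peak within 1000 bp was found for 10 of the 100 chains (5.52% to 17.4%), for 5.23% (4.06% to 6.70%) of the pairs and for 4.26% (3.91% to 4.63%) of the single peaks. The interval of the chains overlaps that of the pairs and lies above that of the single peaks, but it rests on 10 chains. Chains were chosen for close peaks in this same list, and no test between the classes was made. For these 10 chains the outside peak lay 533 to 780 bp away and was 207 to 1641 bp wide. One of 207 bp lay 681 bp beyond the end of the chain on scaffold 12 from position 6500428 to 6502429, and one of 429 bp lay 780 bp before the densely covered chain on scaffold 24. In 94 of the 99 chains the nearest run was a single peak and in the other 5 it was a pair. Single peaks prevail in the list as well, with 12008 of all 13218 runs, beside 1110 pairs and 100 chains.

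Chains were spread thinly over the scaffolds. They lay on 82 of the 449 scaffolds, or 18.3% (15.0% to 22.1%), and these hold 43.4% of all listed peaks. Of the 82, 67 had 1 chain, 12 had 2 and 3 had 3. Scaffolds with a chain held a median of 57 listed peaks (46 to 70), with a range from 3 to 425, and those without one a median of 9 (7 to 12). More peaks give more chances for a chain, so the share of the listed peaks that lay in chains was also taken. It was 1.37% on the 189 scaffolds with 1 to 9 peaks, 2.86% on the 164 with 10 to 49, 2.48% on the 63 with 50 to 99 and 1.70% on the 33 with 100 or more. These shares rest on 3, 35, 33 and 29 chains, each of which brings in at least 3 peaks at once, so no order between the 4 classes is drawn from them. Peak density along the marked stretch, for scaffolds with at least 10 peaks, was 2.08 peaks per 100 kb (1.97 to 2.19) where there was a chain and 1.95 (1.87 to 2.05) where there was none.

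**Figure D5:**
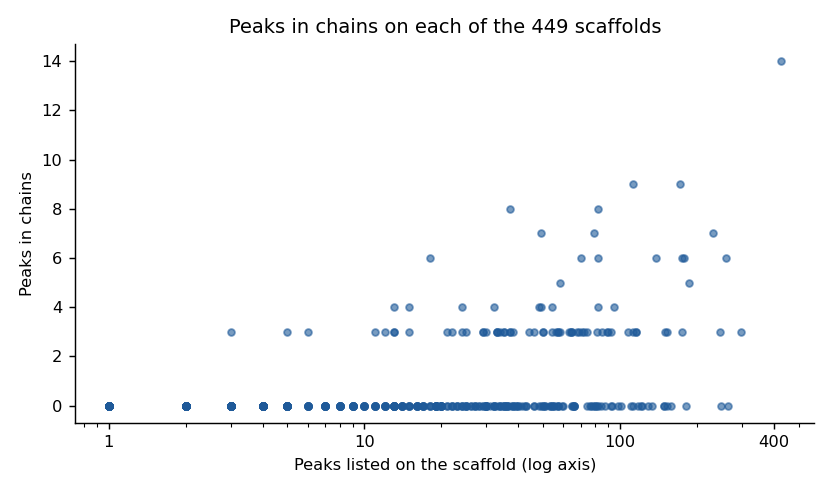
Each point is 1 of the 449 scaffolds, with the number of listed peaks on the horizontal axis (log axis) and the number of those peaks that lie in chains on the vertical axis. Points at 0 are the scaffolds without a chain, and the highest point is scaffold 1 with 14 of 425 peaks in chains.

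The most chains on a scaffold were 3, on scaffolds 1, 12 and 28, which list 425, 171 and 112 peaks. On scaffold 1 the third chain, from position 16944056 to 16947840, has peaks of 257, 1833 and 1161 bp. Scaffold 12 holds chains of 242, 1285 and 1450 bp from position 1816612 to 1820229, of 242, 1006 and 186 bp from position 6500428 to 6502429, and of 339, 194 and 527 bp from position 8291934 to 8293610. The chains of scaffold 28 are 1289, 761 and 246 bp wide from position 2444451 to 2447416, 488, 882 and 256 bp from position 2937156 to 2939357, and 648, 748 and 314 bp from position 3731347 to 3733557. All 3 chains of scaffold 28 end, in the numbering of the scaffold, in a peak narrower than their other peaks. So do chains on other scaffolds, such as that on scaffold 12 from position 6500428 to 6502429. This was therefore not read as a trait of scaffold 28. Chains that shared a scaffold were not close to each other, with distances from 62447 to 7159206 bp between neighbours and a median of 1892840 bp (791989 to 3191982 bp) over 18 such distances.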

How the data were processed

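Mnase-ChIP reads were aligned by the authors to the Rink lab v4 S. mediterranea genome (scaffolds named dd_Smes_g4) with bowtie2, and peaks were called with MACS2. Versions, options and the use of the input library as control are not given in the sources used here. The deposited list gives peak positions in bp, with no score, count or signal. Starts were read as counted from 0, width is end minus start, and printed positions are counted from 1. Figures were drawn with matplotlib 3.10.9, and chains were built and summarised in pandas 2.3.3 and numpy 2.4.6 under Python 3.11.15, with intervals from scipy 1.17.1. The script was tested on simulated data with known chains. Median intervals use binomial order statistics and shares use Wilson's method, both at 95%. The members, the named regions and the comparisons were chosen with earlier results of these data known. Regions are named by number of peaks, span, cover, nearness to the median span (a tie, of which the one on scaffold 51 was added after its values were seen) or to the gap limit, chains per scaffold, and the cbp-3 stretch. The stretches that the study draws for rb, mdc1, p53, zfp-1 and chk2 were also set out for naming, and no chain is named in them. This is not a finding that these stretches hold no chain. Gaps of at most 300, 750 or 1000 bp, peaks of at least 200 bp, scaffolds with at least 10 peaks and chains of at least 4 peaks were tried as alternatives. No gene models were used.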

Additional observations from a re-analysis of the deposited data

How the results depend on the processing

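Of 54 values recomputed under 6 alternatives, 39 stayed within the counting interval of the value reported, or within 1.5 times it for numbers of chains, peaks and scaffolds, and 15 did not. With gaps of at most 300 bp there were 45 chains with 143 peaks on 40 scaffolds, a median span of 2383 bp and a median cover of 79.5%. With gaps of at most 750 bp the median cover was 73.8%. With gaps of at most 1000 bp it was 73.0%, and there were 160 chains with 522 peaks. Counting only chains of 4 or more peaks left 20 chains with 85 peaks on 17 scaffolds, with a median span of 3763.5 bp, a median cover of 74.4% and end peaks with a median width of 670 bp. The numbers of chains and peaks move with the limits by construction, and the cause of the other shifts, the wider end peaks among them, was not tested. The median difference between inner and end widths lay between -154.75 and 3.5 bp under the alternatives, always within its interval, and the widest peak was at an end in 53.3% to 60.6% of chains. No paired analysis was possible because there is 1 library per condition and no result comes from a test between groups. Nor could a replicate be left out. Without read counts, a gap cannot be told apart from a stretch of weak signal, which limits how firmly peaks can be called separate.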

Other observations

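Some scaffolds rich in H3K4me3 peaks held no chain. Scaffolds 2 and 3, with 263 and 247 listed peaks, held 17 and 15 pairs but no run of 3. Of the scaffolds with at least 50 peaks, 49 had no chain and the others did. Over the whole list, where 82 of 449 scaffolds held a chain, lacking one was more common. The whole list holds only 100 chains among 14553 peaks, so even a scaffold rich in peaks would hold few. Whether these absences go beyond that rarity was not tested. On some scaffolds with fewer peaks than these, by contrast, chains held a larger share of the listed peaks than over the list as a whole. Both chains of scaffold 268 hold 6 of its 18 peaks, and those of scaffold 202 hold 8 of 37. On scaffold 456 the chain of 319, 264 and 313 bp is all that is listed. The share of peaks in chains had a median of 6.67% over the 82 scaffolds with a chain, with a range from 1.01% to 100%. Over all listed peaks the share was 2.23%. The 82 scaffolds were picked for holding a chain, and each chain brings in at least 3 peaks. Their shares are thus raised by construction, most where few peaks are listed. Lengths of the scaffolds were not used here, and these patterns were noticed after the values had been seen.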
